A study of Mus musculus with 9 samples.

Results

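Dendritic cells are described here by 10 genes, counted in 9 RNA libraries from mouse tumours. The members were chosen by name from a count table of 44806 entries, and each name matched 1 entry. They fall into 3 plasmacytoid genes (Siglech, Tcf4 and Spib), 5 conventional genes (Xcr1, Batf3, Zbtb46, Cd209a and Flt3) and 2 genes of mature, migrating cells (Fscn1 and Lamp3). The tumours were of MB49, a mouse bladder cancer cell line, with overexpression of HER2, a receptor tyrosine kinase, in every group, controls included. PBS, the vehicle control, Lipo-BiTE and Lipo-TriTE had 3 libraries each. BiTE usually stands for bispecific T cell engager, a protein with 2 antibody-derived arms that brings T cells to their targets; the labels give neither the targets of either agent nor the meaning of the other abbreviations, and no group had the carrier alone. Mouse strain, age, dose and time of collection were not given in the sources used here.

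Dendritic cells take up antigen and present it to T cells. Plasmacytoid dendritic cells sense nucleic acids and are known for making type I interferon. Conventional type 1 cells present antigen of dead cells to CD8 T cells, conventional type 2 cells mainly serve CD4 T cells, and both can mature and move to lymph nodes, losing part of their tissue programme as they do so. In tumours, conventional type 1 cells are known for carrying tumour antigen to T cells.

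The design text speaks of sorted CD3+ T cells, but frozen tumour tissue is what labels and extraction steps describe. Libraries held 13152783 to 20273548 counts. Krt8, an epithelial keratin, lay between 159 and 479 CPM (CPM are counts divided by the library total after scaling by TMM, the trimmed mean of M values, times 10 to the sixth power) over the 9 libraries, and Cd3e, a T cell receptor subunit, between 2.82 and 106 CPM. Summed CPM of 8 fibroblast genes ranged from 936 to 3171 over the libraries. Ptprc, which encodes the leukocyte antigen CD45, had a mean of 88.6 ± 14.05 CPM in PBS, 942 ± 549 CPM in Lipo-BiTE and 1456 ± 258 CPM in Lipo-TriTE (SD, n = 3 each). Nothing in the labels states that replicates were separate mice, so every p-value below measures only the spread between these libraries. In bulk tissue, fewer cells of a type and less RNA of a gene per cell cannot be told apart. A count of 3 in a library, the floor used here, corresponded to 0.146 to 0.237 CPM.

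Promoter sequences are shown for 4 members that carry the main contrast. Siglech and Spib were high in Lipo-TriTE, Xcr1 was high in both treatments but highest in Lipo-TriTE, and Batf3 reached like levels in both treatments. Each run is the 250 bases before the RefSeq transcription start in GRCm38.p6, written 5′ to 3′ on the gene's own strand. The count table uses C57BL/6NJ gene models, a different assembly, so these positions are those of RefSeq only. Capitals mark matches to 4 motifs that were searched on both strands.
Siglech, chr7:55767934-55768183, plus strand: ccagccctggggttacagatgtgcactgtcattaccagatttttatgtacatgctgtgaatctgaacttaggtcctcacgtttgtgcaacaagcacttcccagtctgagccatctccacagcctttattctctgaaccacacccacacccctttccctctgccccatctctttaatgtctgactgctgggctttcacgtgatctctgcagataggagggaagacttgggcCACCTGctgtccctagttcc
Spib, chr7:44532072-44532321, minus strand: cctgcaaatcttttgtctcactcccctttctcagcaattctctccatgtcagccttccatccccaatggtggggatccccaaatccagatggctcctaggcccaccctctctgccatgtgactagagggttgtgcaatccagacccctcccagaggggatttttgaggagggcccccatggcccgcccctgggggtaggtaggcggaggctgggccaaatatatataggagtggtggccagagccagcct
Xcr1, chr9:123862030-123862279, minus strand: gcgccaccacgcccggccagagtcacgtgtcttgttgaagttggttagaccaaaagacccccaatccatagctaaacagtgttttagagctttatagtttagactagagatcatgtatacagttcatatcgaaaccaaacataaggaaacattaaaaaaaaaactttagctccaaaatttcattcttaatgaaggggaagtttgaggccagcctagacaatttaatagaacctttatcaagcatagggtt
Batf3, chr1:191098164-191098413, plus strand: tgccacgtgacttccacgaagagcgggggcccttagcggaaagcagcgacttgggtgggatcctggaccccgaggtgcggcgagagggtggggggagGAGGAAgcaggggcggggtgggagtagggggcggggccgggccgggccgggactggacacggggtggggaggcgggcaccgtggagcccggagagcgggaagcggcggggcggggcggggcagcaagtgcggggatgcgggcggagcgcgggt
The motifs were GAGGAA, the core bound by ETS factors such as PU.1 and Spi-B, CAGGTG, an E-box of the kind bound by E proteins such as TCF4, TGANTCA, bound by AP-1 and BATF dimers, and GAAA followed by any 2 bases and GAAA again, bound by interferon regulatory factors. Matches of different motifs were allowed to overlap, and none of those found did. The Siglech window held CAGGTG on the opposite strand, with its first base 20 bases before the start, position -20. The Batf3 window held GAGGAA at -153. The Spib and Xcr1 windows held none of the 4 in these letters. Of 32851 RefSeq promoter windows of this length, 23.3% held GAGGAA, 17.2% CAGGTG, 6.75% TGANTCA and 2.98% the interferon regulatory factor motif. Among the other members with a window, Zbtb46 held CAGGTG at -238 and TGANTCA at -61 and Lamp3 held the interferon regulatory factor motif at -166, while Cd209a, Flt3 and Fscn1 held none. These matches describe letters and do not show binding.

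Siglech encodes the surface lectin Siglec-H, a defining marker of mouse plasmacytoid cells (chr7:59138176-59148949, plus strand, in the deposited coordinates). It measured 8.83, 4.31 and 4.75 CPM in PBS 1, 2 and 3, 6.71, 6.39 and 8.07 CPM in Lipo-BiTE 1, 2 and 3, and 108, 64.2 and 87.6 CPM in Lipo-TriTE 1, 2 and 3. The 3 Lipo-TriTE libraries stood far above the other 6, which overlapped. Against Lipo-BiTE the level in Lipo-TriTE was 12.2-fold higher (log2 fold change 3.61 ± 0.30 SE, edgeR adjusted p = 0.000165), and against PBS it was 14.6-fold higher (3.87 ± 0.30, edgeR adjusted p = 2.59e-05). Lipo-BiTE against PBS gave a log2 fold change of 0.25 with a 95% interval from -0.39 to 0.89 (edgeR adjusted p = 0.58).

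Spib encodes Spi-B, an ETS transcription factor of plasmacytoid cells that B cells also use (chr7:46960401-46966480, minus strand). It measured 2.82, 1.71 and 2.38 CPM in the PBS libraries, 3.00, 1.58 and 2.04 CPM in the Lipo-BiTE libraries and 107, 35.4 and 29.3 CPM in the Lipo-TriTE libraries. Lipo-TriTE 1 stood apart from its own group, and all 3 lay above every other library. The rise was 24.9-fold against PBS (log2 4.64 ± 0.53 SE, edgeR adjusted p = 0.000179) and 26.0-fold against Lipo-BiTE (4.70 ± 0.53, edgeR adjusted p = 0.00145). Without Lipo-TriTE 1 the log2 fold changes were 3.83 and 3.899, both still past the threshold. Between Lipo-BiTE and PBS the libraries overlapped (-0.06 ± 0.54, edgeR adjusted p = 0.96).

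B cell genes rose with Spib in Lipo-TriTE, whereas in Lipo-BiTE their sum lay above PBS while Spib overlapped PBS. The summed CPM of 9 B cell genes (Cd79a, Cd79b, Ms4a1, Pax5, Cd22, Blk, Fcer2a, Cr2 and Bank1) ranged from 8.79 to 11.8 in PBS and from 19.4 to 43.6 in Lipo-BiTE, and it was 1245, 459 and 462 in Lipo-TriTE 1, 2 and 3. Cd79a and Cr2 were at 0 counts in PBS 2, and no other gene of this list was at 0 in any library. All 9 were higher in Lipo-TriTE in both comparisons of that group by the edgeR test at an adjusted p under 0.05. Of all genes, 18.9% were higher against PBS and 4.88% against Lipo-BiTE. The library with the most B cell signal, Lipo-TriTE 1, also had the most Spib (107 CPM) and the most Siglech (108 CPM). The part of B cells in the rises of Spib and Siglech was not tested. Lipo-TriTE 2 and 3, with nearly equal B cell sums of 459 and 462 CPM, had 35.4 and 29.3 CPM of Spib and 64.2 and 87.6 CPM of Siglech.

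**Figure D1:**
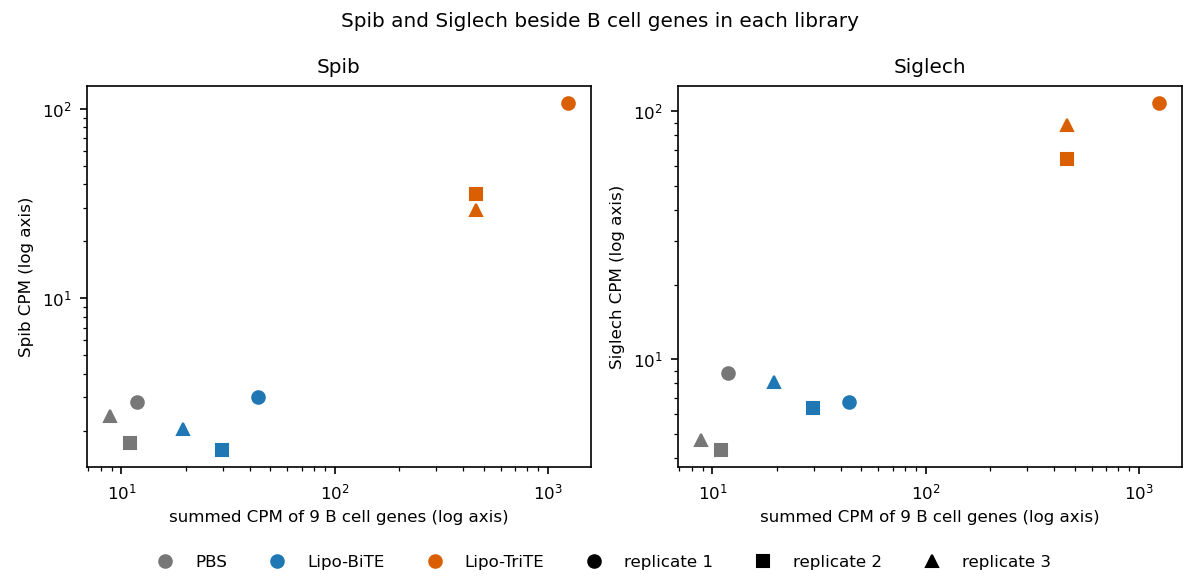
Each point is 1 library, with the summed CPM of 9 B cell genes on the x axis and the CPM of Spib (left) or Siglech (right) on the y axis, both axes logarithmic; colours mark the groups and shapes the replicate numbers. The 3 Lipo-TriTE libraries stand at the upper right in both panels, with B cell sums of 459 to 1245 CPM.

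Tcf4 encodes the E protein that maintains the plasmacytoid fate, and many other cells of a tumour express it as well (chr18:71579674-71941358, plus strand). It measured 232, 216 and 223 CPM in PBS, 140, 154 and 179 CPM in Lipo-BiTE and 149, 162 and 171 CPM in Lipo-TriTE, so that every treated library lay below every PBS library. Tcf4 fell 1.42-fold in Lipo-BiTE (log2 -0.50 ± 0.13 SE, edgeR adjusted p = 0.0257) and 1.39-fold in Lipo-TriTE (-0.48 ± 0.13, edgeR adjusted p = 0.0181). Both calls were close to the threshold. The first was lost without PBS 1, PBS 2, PBS 3, Lipo-BiTE 1 or Lipo-BiTE 2 (edgeR adjusted p from 0.0751 to 0.104), and the second without PBS 2, PBS 3, Lipo-TriTE 1 or Lipo-TriTE 2 (0.0631 to 0.0753). The summed CPM of 8 fibroblast genes was lower as well, with means of 2788 for PBS, 1792 for Lipo-BiTE and 1175 for Lipo-TriTE. Col3a1, named after its values were seen, held most of that sum, with a mean of 2506 CPM in PBS. Against PBS, 5 of the 8 fell in Lipo-BiTE and 4 in Lipo-TriTE, beside 3.22% and 14.8% of all genes. The other 4 were not called in Lipo-TriTE. The sum of 6 epithelial genes averaged 938, 725 and 565 CPM. Of the 5 tested, none fell and 1 rose in Lipo-BiTE, beside 3.22% and 13.8% of all genes. In Lipo-TriTE 2 fell and 1 rose, beside 14.8% and 18.9%. The riser was Cdh1, the adhesion protein E-cadherin, at 6.20-fold and 9.27-fold. Lum was at 0 counts in Lipo-BiTE 1 and 2, and Krt14 in 5 of the 9 libraries. The part of these cells in the Tcf4 level was not tested. In Lipo-TriTE, Tcf4 fell while Siglech and Spib rose.

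Xcr1, the chemokine receptor that defines conventional type 1 cells, binds XCL1 from activated T and natural killer cells (chr9:130413618-130422777, minus strand). Its level was 2.45, 1.77 and 1.43 CPM in PBS, 8.29, 7.82 and 6.84 CPM in Lipo-BiTE and 26.4, 20.2 and 28.8 CPM in Lipo-TriTE. The 3 groups did not overlap at any step. Xcr1 rose 4.08-fold in Lipo-BiTE (log2 2.03 ± 0.26 SE, edgeR adjusted p = 0.000793) and 13.4-fold in Lipo-TriTE (3.74 ± 0.27, edgeR adjusted p = 1.76e-05) against PBS. Lipo-TriTE exceeded Lipo-BiTE by 3.28-fold (1.72 ± 0.24, edgeR adjusted p = 0.00328).

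Flt3 is the receptor for FLT3 ligand, the cytokine on which dendritic cells of both branches depend, and it is placed here with the conventional genes (chr5:158579296-158653527, minus strand). It measured 4.16, 2.77 and 3.56 CPM in PBS, 7.73, 6.84 and 6.11 CPM in Lipo-BiTE and 41.6, 38.8 and 38.8 CPM in Lipo-TriTE, again without overlap between groups. The Lipo-BiTE rise was 1.97-fold (log2 0.98 ± 0.21 SE, edgeR adjusted p = 0.00825) and the Lipo-TriTE rise 11.4-fold (3.51 ± 0.21, edgeR adjusted p = 5.66e-06). Between the treatments the difference was 5.76-fold (2.53 ± 0.20, edgeR adjusted p = 0.000145). Its spread within Lipo-TriTE was small, with an SD of 1.58 CPM around a mean of 39.7 CPM (n = 3).

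Cd209a encodes a C-type lectin of conventional type 2 cells and of monocyte-derived dendritic cells (chr8:742004-747635, minus strand). PBS libraries held 2, 4 and 1 counts, or 0.148, 0.236 and 0.0594 CPM, against 2.84, 2.11 and 2.91 CPM in Lipo-BiTE and 9.61, 5.71 and 7.00 CPM in Lipo-TriTE. The groups did not overlap, although the PBS level lay near the floor. Fitted rises against PBS were 16.8-fold in Lipo-BiTE (log2 4.07, 95% interval 2.97 to 5.18, edgeR adjusted p = 0.000765) and 47.7-fold in Lipo-TriTE (5.58, 95% interval 4.48 to 6.68, edgeR adjusted p = 4.31e-05). The step from Lipo-BiTE to Lipo-TriTE was 2.84-fold (1.51 ± 0.38 SE, edgeR adjusted p = 0.0307). That last call was lost without Lipo-BiTE 1, 2 or 3 or Lipo-TriTE 1 or 3 (edgeR adjusted p from 0.0569 to 0.131).

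Batf3, the AP-1 family factor that type 1 cells need to develop, is also induced in activated T cells (chr1:204431960-204444451, plus strand). It measured 1.34, 0.944 and 2.14 CPM in PBS, 12.5, 7.97 and 5.67 CPM in Lipo-BiTE and 6.31, 8.88 and 7.52 CPM in Lipo-TriTE. Both treated groups lay above PBS and overlapped each other. Batf3 rose 5.88-fold in Lipo-BiTE (log2 2.56 ± 0.40 SE, edgeR adjusted p = 0.00159) and 5.10-fold in Lipo-TriTE (2.35 ± 0.40, edgeR adjusted p = 0.00144). For Lipo-TriTE against Lipo-BiTE the log2 fold change was -0.21 with a 95% interval from -1.01 to 0.60 (edgeR adjusted p = 0.77). That interval does not reach the difference of 1.72 fitted for Xcr1, the other type 1 gene of the set.

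Zbtb46, a zinc finger factor that marks conventional cells and is also made by endothelium, changed least of the conventional genes against PBS in Lipo-TriTE (chr2:193405824-193500279, minus strand). Its level was 4.60, 5.67 and 6.65 CPM in PBS, 12.0, 12.1 and 9.67 CPM in Lipo-BiTE and 18.8, 16.4 and 15.7 CPM in Lipo-TriTE. It rose 1.99-fold in Lipo-BiTE (log2 0.99 ± 0.22 SE, edgeR adjusted p = 0.0107) and 3.00-fold in Lipo-TriTE (1.59 ± 0.22, edgeR adjusted p = 0.000464). Between the treatments the libraries did not overlap, yet the difference of 0.59 ± 0.21 missed the threshold (edgeR adjusted p = 0.105). Summed CPM of 6 endothelial genes ranged from 135 to 159 in PBS, 220 to 238 in Lipo-BiTE and 151 to 224 in Lipo-TriTE. Its genes went different ways against PBS. Of 4 tested, 1 rose in Lipo-BiTE, beside 13.8% of all genes. In Lipo-TriTE 2 rose and 1 fell, beside 18.9% and 14.8%. Cdh5, named after its values were seen, held most of the PBS sum (mean 142 CPM) and fell 1.68-fold in Lipo-TriTE. Pecam1 rose 11.4-fold in Lipo-BiTE and 15.6-fold in Lipo-TriTE, where the leukocyte gene Ptprc rose 10.6-fold and 16.4-fold. The part of leukocytes in the Pecam1 level was not tested. Tek or Emcn was at 0 counts in 5 of the 9 libraries. The part of endothelial cells in the Zbtb46 level was not tested.

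**Figure D2:**
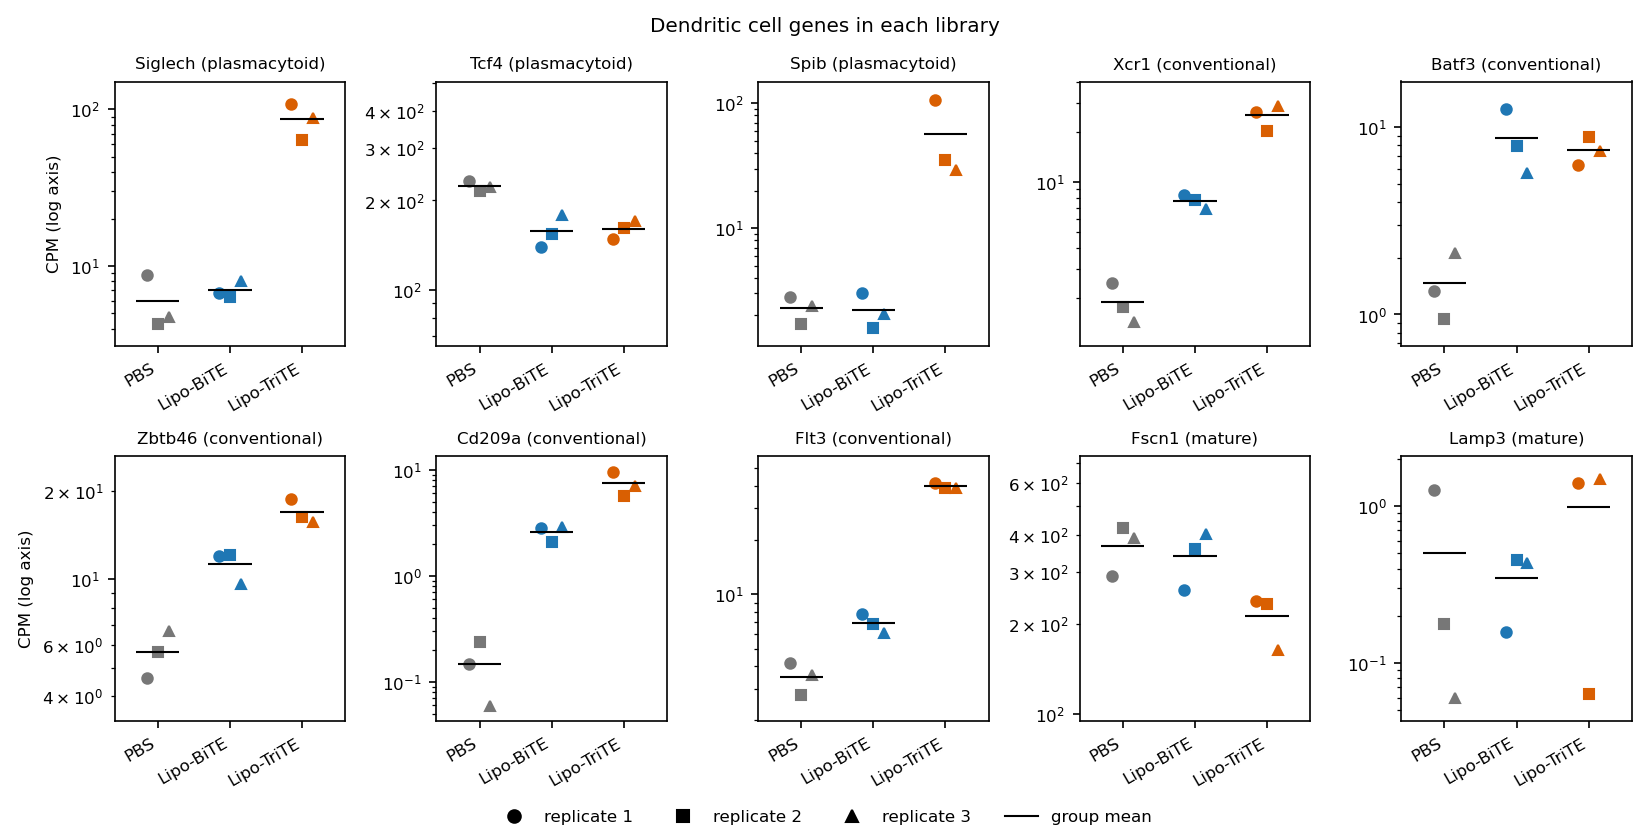
The CPM of each of the 10 genes in each library is plotted on a logarithmic axis, 1 panel a gene, with the group mean as a bar and the replicate number as the shape. Siglech and Spib lie at or below 8.83 CPM in PBS and Lipo-BiTE and at or above 29.3 CPM in Lipo-TriTE. The 5 conventional genes are above PBS in every treated library. Of all genes tested, 22.7% lay above PBS without overlap in Lipo-BiTE and 26% in Lipo-TriTE.

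Of the mature pair, Fscn1 passed the test in Lipo-TriTE against PBS, and Lamp3 passed it in no comparison. Fscn1 encodes fascin, an actin-bundling protein of mature dendritic cells that tumour cells also make (chr5:153665851-153682780, plus strand). It measured 291, 424 and 390 CPM in PBS, 261, 358 and 403 CPM in Lipo-BiTE and 240, 235 and 164 CPM in Lipo-TriTE, where every library was below those of the other groups. Fscn1 fell 1.73-fold in Lipo-TriTE against PBS (log2 -0.79 ± 0.21 SE, edgeR adjusted p = 0.0161), a call lost without PBS 2, PBS 3 or Lipo-TriTE 3 (0.0522 to 0.0748). Against Lipo-BiTE the fitted difference was -0.68 ± 0.21 (edgeR adjusted p = 0.07), which passed without PBS 1 (0.0466) or Lipo-BiTE 1 (0.0234). Lamp3, a lysosomal membrane protein of mature dendritic cells (chr16:17271374-17319481, minus strand), held 17, 3 and 1 counts in PBS, 2, 6 and 6 in Lipo-BiTE and 29, 1 and 23 in Lipo-TriTE. Every group overlapped the others. With a fitted log2 fold change of 1.02 ± 1.13 in Lipo-TriTE against PBS (edgeR adjusted p = 0.52), no difference in Lamp3 was detectable. The fitted value rested on 1 library: without PBS 1 it was 2.97 (edgeR adjusted p = 0.109).

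Per kilobase of the deposited gene length, Fscn1 had the highest level of the set in every group, with 122 CPM per kb for PBS, 113 for Lipo-BiTE and 70.7 for Lipo-TriTE. In PBS it was followed by Tcf4 with 8.27 CPM per kb and then, with ranges that overlapped from each gene to the next, by Siglech with 1.76, Batf3 with 0.962, Spib with 0.802, Zbtb46 with 0.663, Flt3 with 0.566, Xcr1 with 0.423, Lamp3 with 0.149 and Cd209a with 0.0997. In Lipo-BiTE the next levels were Tcf4 with 5.84 CPM per kb and Batf3 with 5.70, whose ranges overlapped. Below a gap came Siglech with 2.09 CPM per kb, Cd209a with 1.76 and Xcr1 with 1.72, overlapping in that order, then Zbtb46 with 1.32, Flt3 with 1.12 and Spib with 0.768, overlapping likewise, and last Lamp3 with 0.104. In Lipo-TriTE Siglech with 25.6 CPM per kb and Spib with 19.9 overlapped each other and stood above the rest. Flt3 with 6.43 CPM per kb, Tcf4 with 5.94, Xcr1 with 5.64, Cd209a with 5.01 and Batf3 with 4.94 overlapped from each to the next, and Zbtb46 with 1.99 and Lamp3 with 0.295 were lower without overlap. The deposited length of Tcf4, 27000 bases, is the longest of the set, and a longer length gives a lower level per kilobase from the same count.

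By the edgeR test, 5 of the 10 genes rose in Lipo-BiTE against PBS, all 5 conventional ones, beside 13.8% of the 16596 genes tested, and 1 fell, Tcf4, beside 3.22% (either direction 6 of 10, beside 17%). Set against PBS, Lipo-TriTE had 7 that rose, the conventional 5 with Siglech and Spib, beside 18.9% of all genes, and 2 fell, Tcf4 and Fscn1, beside 14.8% (either direction 9 of 10, beside 33.6%). These comparisons share the PBS libraries. In Lipo-TriTE against Lipo-BiTE 5 rose, namely Siglech, Spib, Xcr1, Cd209a and Flt3, beside 4.88% of all genes, and none passed in the lower direction by edgeR or by DESeq2, where 5.21% of all genes did by edgeR (10.1% in either direction); Fscn1 alone had an unadjusted p under 0.05 there. All 10 genes passed the filter on low counts. Their median log2 fold change was 0.62, 2.93 and 1.49 in the 3 comparisons, against -0.02, 0.00 and -0.01 for all genes tested.

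**Figure D3:**
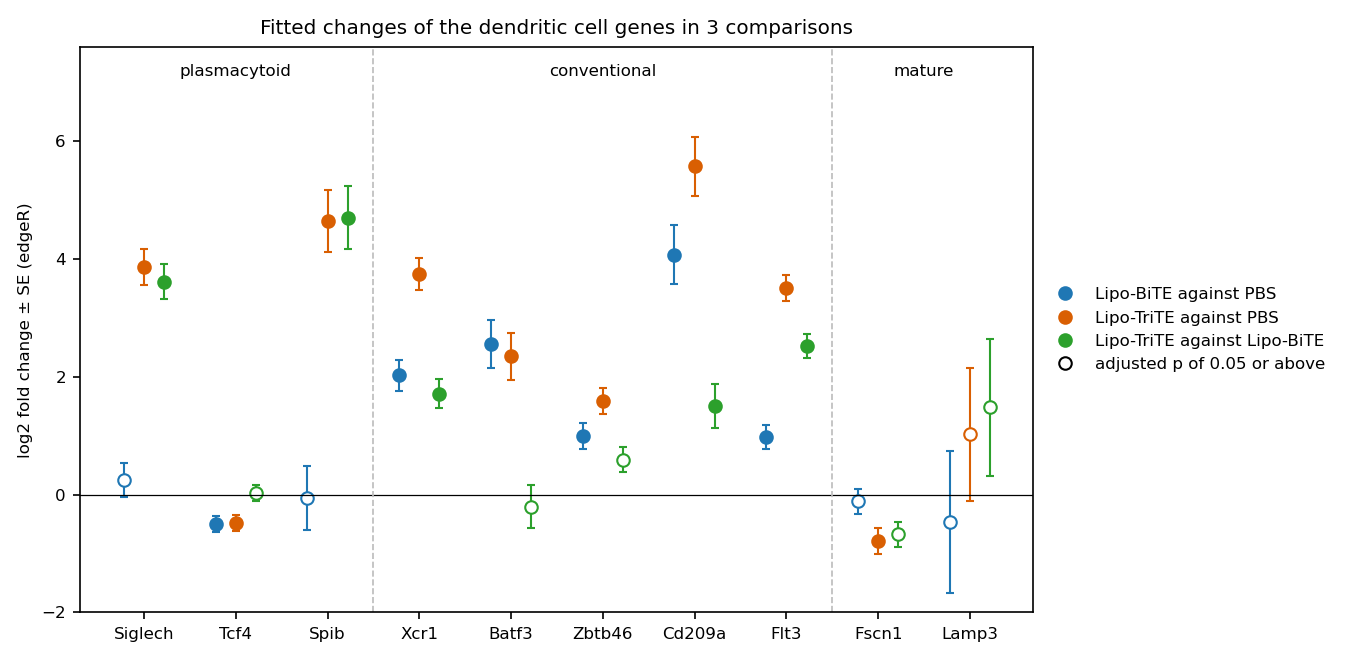
Fitted log2 fold changes of the 10 genes are shown with their SE for the treatments against PBS and against each other; open points had an edgeR adjusted p of 0.05 or above. For Siglech and Spib the Lipo-BiTE points lie at 0.25 and -0.06 and the Lipo-TriTE points at 3.87 and 4.64, whereas all conventional genes are above 0 in both comparisons with PBS.

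A ratio of members within a library does not depend on how libraries are scaled, and such ratios were set against each other by a two-sided exact permutation test of 3 and 3 libraries, which cannot give a p under 0.1. The ratio of Siglech to Xcr1 per kilobase was 4.70, 3.17 and 4.32 in PBS, 1.07, 1.08 and 1.55 in Lipo-BiTE and 5.36, 4.17 and 4.01 in Lipo-TriTE. It was 3.31-fold lower in Lipo-BiTE than in PBS (exact permutation p = 0.1), 3.69-fold higher in Lipo-TriTE than in Lipo-BiTE (exact permutation p = 0.1) and overlapped between Lipo-TriTE and PBS (log2 difference 0.16, exact permutation p = 0.6). The 3 Lipo-BiTE libraries were the lowest of the 9. Cd209a to Xcr1 was 0.224, 0.443 and 0.184 in PBS, 1.04, 0.818 and 1.29 in Lipo-BiTE and 1.10, 0.850 and 0.732 in Lipo-TriTE. The log2 difference from PBS was 1.97 in Lipo-BiTE and 1.74 in Lipo-TriTE (exact permutation p = 0.1 each), and it fell to 1.38 and 1.13 with 2 instead of 0.5 counts added, since PBS libraries held few Cd209a counts.

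Relative to Ptprc, which rose 10.6-fold in Lipo-BiTE and 16.4-fold in Lipo-TriTE, the members were mostly level or lower. Siglech per Ptprc was lower in every Lipo-BiTE library than in every PBS library (log2 difference -2.92, exact permutation p = 0.1) and overlapped between Lipo-TriTE and PBS (-0.14, exact permutation p = 1). The same held for Spib, with -3.31 in Lipo-BiTE (exact permutation p = 0.1) and 0.36 in Lipo-TriTE (exact permutation p = 0.6), and for Flt3, with -2.25 (exact permutation p = 0.1) and -0.52 (exact permutation p = 0.3). Xcr1 per Ptprc overlapped PBS in both treatments (-1.20, exact permutation p = 0.2, and -0.30, exact permutation p = 0.7). Zbtb46 per Ptprc was below PBS in both (-2.23 and -2.44, exact permutation p = 0.1 each), and Batf3 per Ptprc was below PBS in Lipo-TriTE (-1.64, exact permutation p = 0.1) and overlapped it in Lipo-BiTE (-0.69, exact permutation p = 0.2). Cd209a per Ptprc was the one ratio above PBS without overlap, in Lipo-TriTE (1.44, exact permutation p = 0.1; 0.76 with 2 counts added). Tcf4 per Ptprc (-3.74 in Lipo-BiTE and -4.52 in Lipo-TriTE) and Fscn1 per Ptprc (-3.35 and -4.83) were below PBS without overlap in both treatments (exact permutation p = 0.1 each), and Lamp3 per Ptprc overlapped it in both. Over the 42 ratio tests 23 reached the smallest p, and the smallest Benjamini-Hochberg adjusted p was 0.183, so no ratio passed the adjustment.

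**Figure D4:**
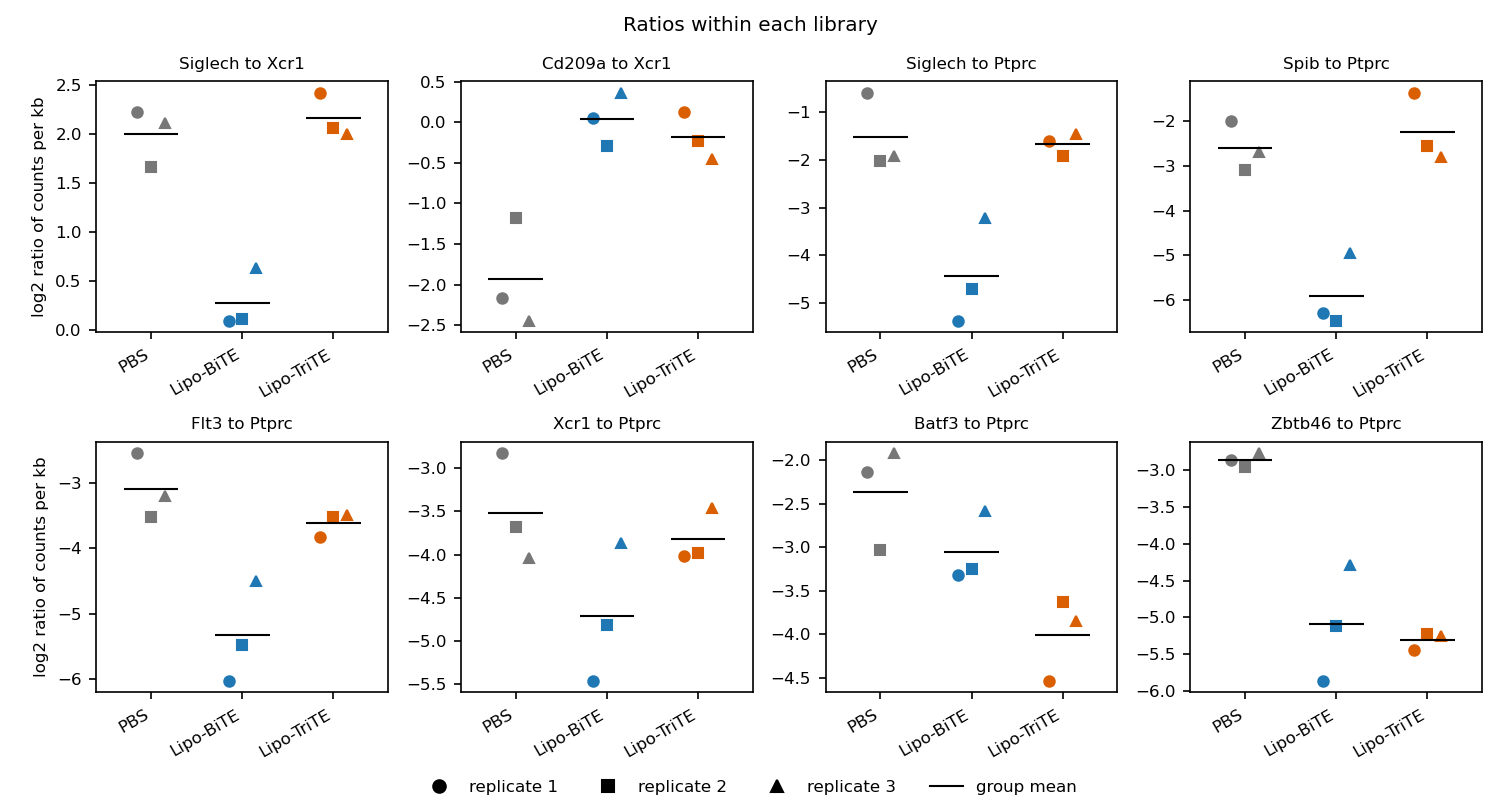
Each point is the log2 ratio of 2 genes' counts per kilobase in 1 library, with group means as bars and replicate numbers as shapes. Siglech to Xcr1 has a group mean of 0.28 in Lipo-BiTE against 2.00 in PBS and 2.16 in Lipo-TriTE, and the ratios of Siglech, Spib and Flt3 to Ptprc are lowest in Lipo-BiTE.

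Other genes of the same cell types were read from 5 lists, which shared some genes. Irf8, Irf4 and Relb of the list of lineage regulators also stood in the type 1, type 2 and mature lists, in that order. Of 19 further plasmacytoid genes tested, 8 rose in Lipo-BiTE against PBS, 16 in Lipo-TriTE against PBS and 10 in Lipo-TriTE against Lipo-BiTE, with median log2 fold changes of 0.93, 3.50 and 2.29. Over all 16596 genes tested, 13.8%, 18.9% and 4.88% rose in these comparisons, and the medians were -0.02, 0.0032 and -0.01. Ptprs, a receptor phosphatase, was the 1 gene of the list lower in Lipo-TriTE against PBS and against Lipo-BiTE; it is named after its values were seen. Ccr9, a chemokine receptor of plasmacytoid cells that T cells also use, had means of 2.82 CPM in PBS, 4.15 CPM in Lipo-BiTE and 47.7 CPM in Lipo-TriTE, a rise of 11.5-fold between the treatments (edgeR adjusted p = 0.000131). Dntt, Ly6d and Bcl11a, which are known in B lineage cells too, and Atp1b1 rose 11.6-fold, 26.8-fold, 7.53-fold and 7.61-fold between the treatments. Against PBS, Bcl11a and Atp1b1 also rose in Lipo-BiTE, 4.30-fold and 2.34-fold (edgeR adjusted p = 0.00841 and 0.0051), whereas Ccr9, Dntt and Ly6d were not called. Cybb, Pld4, Mpeg1 and Tlr7, which macrophages or B cells also express, were 7.29-fold to 10.7-fold above PBS in Lipo-BiTE. None of these 4 passed the test between the treatments (log2 fold changes from -0.02 to 0.64). They were named for the smallest p in Lipo-BiTE against PBS, and the genes before them for the smallest p in the Lipo-TriTE comparisons. The summed CPM of 11 macrophage and monocyte genes averaged 152 in the PBS, 1431 in the Lipo-BiTE and 931 in the Lipo-TriTE libraries, and its part in the 4 rises was not tested.

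Of 13 further type 1 genes, 5 rose in Lipo-BiTE against PBS, 9 in Lipo-TriTE against PBS and 5 between the treatments, beside 13.8%, 18.9% and 4.88% of all genes (medians 0.73, 2.00 and 0.67). Clec9a, the receptor of type 1 cells for dead cell debris, had means of 5.64, 7.96 and 22.5 CPM in PBS, Lipo-BiTE and Lipo-TriTE; it rose 3.99-fold in Lipo-TriTE (edgeR adjusted p = 0.000186) and was at a log2 fold change of 0.50 in Lipo-BiTE (edgeR adjusted p = 0.17). The count between the treatments was 3 without Lipo-BiTE 2. Itgae, the CD103 integrin chain shared with tissue T cells, rose 2.91-fold and 9.51-fold against PBS. Summed CPM of 11 T cell genes rose alongside, with means of 52.6, 309 and 1213, and its part in the Itgae level was not tested. Gcsam stood at 1.41, 3.07 and 15.1 CPM.

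Of 11 further type 2 genes tested, 10 rose in Lipo-BiTE, 11 in Lipo-TriTE against PBS and 5 between the treatments, beside the same shares of all genes (medians 3.15, 4.03 and 0.56). Summed CPM of T cell, B cell, macrophage and neutrophil genes also averaged higher in both treatments than in PBS. The part of those cells in these counts was not tested. The count of 5 fell to between 1 and 3 without PBS 3, Lipo-BiTE 2, Lipo-BiTE 3 or any 1 of the Lipo-TriTE libraries, and to 3 with the replicate block or with no filter on low counts. Clec10a, a lectin of type 2 cells and macrophages, had means of 1.61, 12.4 and 26.5 CPM, and Sirpa, also a macrophage receptor, had 17.1, 268 and 140 CPM. Clec10a rose 7.65-fold in Lipo-BiTE and 16.4-fold in Lipo-TriTE, and its call between the treatments (2.14-fold, edgeR adjusted p = 0.0344) was lost without Lipo-BiTE 2 or 3 or Lipo-TriTE 1 or 3 (0.0745 to 0.144). Irf4, the factor of type 2 and of B lineage cells, rose 6.54-fold and 25.7-fold against PBS.

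**Figure D5:**
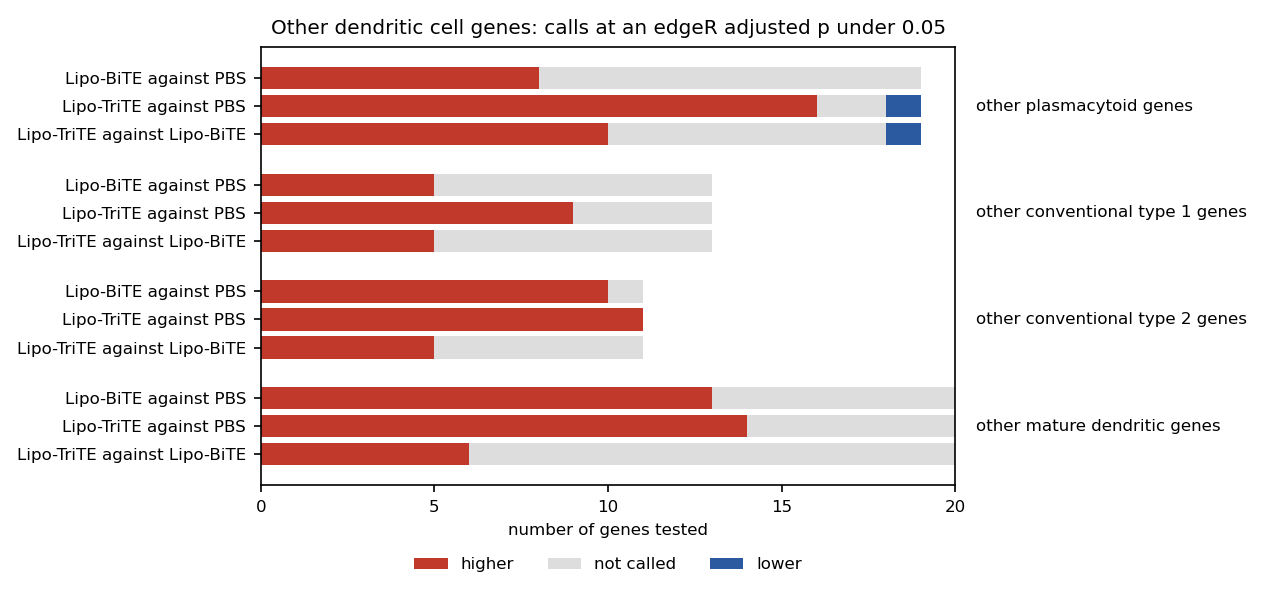
Bars show how many genes of 4 lists were tested in each comparison, split into those higher, lower or not called at an edgeR adjusted p under 0.05. Of 19 plasmacytoid genes 8 were above PBS in Lipo-BiTE and 16 were in Lipo-TriTE, and of 11 type 2 genes 10 and 11 were.

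Of 20 further genes of mature cells, 13 rose in Lipo-BiTE and 14 in Lipo-TriTE against PBS, beside 13.8% and 18.9% of all genes, and 6 rose between the treatments, beside 4.88% (medians 1.67, 2.56 and 0.20). The count of 6 was 3 without Lipo-BiTE 2. Against PBS, 7 of the 20 were not called in Lipo-BiTE and 6 in Lipo-TriTE. Among these was Cd40, named after its values were seen, which lay below PBS without overlap in both treatments (log2 fold changes -0.39 and -0.41). Ccr7, the receptor that guides mature dendritic cells and naive lymphocytes to lymph nodes, had means of 4.12, 13.7 and 115 CPM, rising 3.37-fold in Lipo-BiTE and 28.1-fold in Lipo-TriTE. Ccl22, a chemokine of mature cells, had 4.71, 16.0 and 66.8 CPM and rose 4.16-fold between the treatments (edgeR adjusted p = 0.00719). Cd83, a maturation marker also found on B cells, rose 4.97-fold and 14.3-fold against PBS, and Serpinb6b 2.76-fold and 8.26-fold. Cd274, which encodes the checkpoint ligand PD-L1, stood at 34.4, 357 and 165 CPM, 10.4-fold above PBS in Lipo-BiTE and 4.78-fold in Lipo-TriTE. The macrophage and monocyte sum averaged 152, 1431 and 931 CPM in the same order. The part of these cells in the Cd274 level was not tested.

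A list of growth factors and lineage regulators of dendritic cells also held the chemokines Xcl1, Ccl3 and Ccl4. Of 21 genes tested, 17 rose in Lipo-BiTE and 14 in Lipo-TriTE against PBS, beside 13.8% and 18.9% of all genes. In each, 1 was lower, Kitl, the ligand of KIT, named after its values were seen. Ptprc rose 10.6-fold and 16.4-fold against PBS, and the part of other leukocytes in these counts was not tested. Kitl fell 1.66-fold and 2.30-fold, and the count of lower genes in Lipo-BiTE was 0 without PBS 1, PBS 3, Lipo-BiTE 1 or Lipo-BiTE 2. Between the treatments 2 were higher and 3 lower, beside 4.88% and 5.21% of all genes, and both counts changed with the settings. The higher 2 were Irf4 and Irf8, already counted in the type 2 and type 1 lists. The 2 became 0 without Lipo-BiTE 2, 1 without Lipo-BiTE 3 or Lipo-TriTE 1 and 5 without Lipo-BiTE 1, and the 3 became 1 without Lipo-BiTE 2, Lipo-TriTE 2 or Lipo-TriTE 3. With DESeq2 or with no filter the 2 became 5, without TMM 4 and with only the 2 groups fitted 1, and with the replicate block the 3 became 1. Csf1, the macrophage growth factor, had means of 132, 378 and 135 CPM, was 2.87-fold above PBS in Lipo-BiTE (edgeR adjusted p = 0.00343) and was lower in Lipo-TriTE than in Lipo-BiTE by 1.49 on the log2 scale (edgeR adjusted p = 0.00987). Irf8, which type 1 and plasmacytoid cells need, had means of 137, 227 and 404 CPM. Its call between the treatments (edgeR adjusted p = 0.0341) was lost without Lipo-BiTE 2 or 3 or Lipo-TriTE 1 (0.0685 to 0.118) or with only the 2 groups fitted (0.052), and that of Klf4, lower in Lipo-TriTE with 14.7 against 35.8 CPM, was lost without Lipo-BiTE 1 or 2 or Lipo-TriTE 2 or 3 (0.0559 to 0.0878) and with the replicate block (0.0519). The remaining gene of the lower 3 was Notch2, named after its values were seen. Xcl1, the ligand of XCR1, also named after its values were seen, rose 13.4-fold in Lipo-BiTE from a mean of 0.277 CPM in PBS and 19.6-fold in Lipo-TriTE. Flt3l, the ligand of FLT3, was not analysed here.

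Cd207, which defines Langerhans cells, another dendritic type, was at 0 counts in 7 libraries and held 4 counts in Lipo-BiTE 2 and 18 counts in Lipo-TriTE 2.

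By likeness of pattern, measured as the mean absolute difference of log2 CPM over the 9 libraries after centring each gene, the tested genes nearest to Siglech were Ccr9 (0.23), Dntt (0.32) and Cd7 (0.34), of 11610 compared. Nearest to Xcr1 were Klrg1 (0.21), Cd83 (0.22) and Icos (0.23), and nearest to Cd209a were Gimap4 (0.28), Ctla4 (0.29) and Lat (0.31), T or natural killer cell genes for the most part. Among the 10 members themselves the closest were Fscn1 and Tcf4 (0.32), Flt3 and Xcr1 (0.42), Flt3 and Siglech (0.43), and Siglech and Spib (0.46). These distances share the libraries and their depth, and they carry no test.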

How the data were processed

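The authors deposited raw read counts per gene, per the file headers; the aligner is not given in the sources used here, nor the counter. RNA came from frozen tumour tissue through columns and random-primed cDNA, per the labels' protocols; molecular identifiers and strandedness are not stated, so antisense or overlapping reads could add to a gene. Count columns named untreated were taken as PBS, an inference. Genes passing filterByExpr (16596) were tested in R 4.3.3 with edgeR 4.0.16 (TMM, robust quasi-likelihood F test, all 9 libraries, 1 mean per group, Benjamini-Hochberg over all tested genes, threshold 0.05); the procedure was tested on simulated data. Of repeated names (52), the entry with most counts kept the name. Ratios used counts per kilobase plus 0.5 counts. Members, lists and tests were chosen with earlier results of these data known. Named genes are the 10 members, up to 4 genes of each list and comparison with the smallest p, and the 3 nearest in pattern to Siglech, Xcr1 and Cd209a. Lists also held plasma cell, neutrophil, pneumocyte and cell cycle genes. One B cell gene is not reported here and was left out of its list's sum. Ly6c2, Mgl2, Cd1d1, Socs2, Flt3l and Csf2rb were not analysed here. Alternatives were DESeq2 1.42.0, no TMM, other filters, 2 groups only, a replicate block and leaving out each library. Every pair of replicates differed by more than counting noise (lowest chi-square per df 5.09).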

Additional observations from a re-analysis of the deposited data

How the results depend on the processing

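The number of members called stayed within 1.5 times under every alternative run: 5 to 6 for Lipo-BiTE and 7 to 9 for Lipo-TriTE against PBS, and 4 to 6 for Lipo-TriTE against Lipo-BiTE. With the replicate block the counts were 6, 9 and 4, the last because Cd209a was no longer called (edgeR adjusted p = 0.056). Libraries with the same replicate number did not deviate together (r from -0.194 to 0.0755, 0 of 9 pairs over 0.1), so the numbers were not treated as pairs. Directions of members turned only where no test was passed. Leaving out 1 library moved the log2 value against PBS in Lipo-BiTE from -0.33 to 0.13 for Spib, from -0.27 to 0.049 for Fscn1 and from -1.01 to 1.498 for Lamp3, which was 0.12 with the replicate block. In Lipo-TriTE against Lipo-BiTE it moved from -0.083 to 0.16 for Tcf4 and from -0.40 to 0.12 for Batf3. The cause was not tested. Without the filter Fscn1 was called in that comparison (edgeR adjusted p = 0.00181). Total counts without TMM moved the median of all genes by -0.13 for Lipo-BiTE against PBS and by 0.13 between the treatments, and no member's call changed. Over all genes, those lower in Lipo-BiTE against PBS numbered 534 and ranged from 80 to 988, and those higher numbered 2283 and 1455 without Lipo-BiTE 1. In Lipo-TriTE 2449 were lower than in PBS, 1391 without PBS 2. Between the treatments 810 were higher, from 276 to 1572, and 865 lower, from 158 to 1455. Counts were low for Lamp3, which also varied widely within groups (1 to 29 in Lipo-TriTE), and for Cd209a in PBS.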

Other observations

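Gene lists that belong to no comparison above gave these values. Of 6 plasma cell genes tested, 2 rose and 1 fell in Lipo-BiTE, and 5 rose and 1 fell in Lipo-TriTE against PBS, where 13.8% and 18.9% of all genes rose and 3.22% and 14.8% fell. Jchain, the joining chain of secreted antibodies, had means of 2.095 CPM in PBS, 2.79 CPM in Lipo-BiTE and 259 CPM in Lipo-TriTE, and Mzb1 had 0.569, 0.248 and 34.4 CPM. Both rose in Lipo-TriTE, 124-fold and 64.1-fold above PBS by the edgeR test. Xbp1 and Sdc1, which other cells also express, held most of the list's summed CPM, 393 to 419 in PBS, 511 to 1223 in Lipo-BiTE and 826 to 997 in Lipo-TriTE. Summed CPM of 6 neutrophil genes ranged from 133 to 302 in PBS, 1131 to 6338 in Lipo-BiTE and 1314 to 4356 in Lipo-TriTE. Of 7 cell cycle genes, 1 (Mcm6) fell in Lipo-BiTE and 3 in Lipo-TriTE against PBS, beside 3.22% and 14.8% of all genes. Sftpc, the defining gene of type II pneumocytes, held at most 3 counts in a library, while Napsa, a second gene of that list, was higher in both treatments against PBS. Of the 5 genes listed, only Napsa passed the filter on low counts. Sftpb, Sftpa1 and Sftpd held 38, 2 and 24 counts over all libraries together.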
